A study of Mus musculus with 12 samples.

Results

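The 9 genes of programmed cell death described here were measured in the transcriptome of IEC4.1 cells: the inflammatory caspases Casp1, Casp4 and Casp12, the pore-forming protein gene Gsdmd, the death receptor gene Fas, the initiator caspase gene Casp8, the receptor-interacting kinase genes Ripk1 and Ripk3, and Mlkl. They were taken by gene symbol, and all 9 were found among the 15002 genes listed in each library. IEC4.1 is a line derived from newborn mouse intestinal epithelium, and RNA sequencing was used to ask how its response to interferon-γ (IFN-γ) depends on the long noncoding RNA Nostrill. There were 4 groups of 3 libraries each, all from wild-type cells and all transfected with siRNA for 24 h. The siR_Ctrl group received a scrambled siRNA and no IFN-γ, and the siR_Ctrl + IFN-γ group received the scrambled siRNA and IFN-γ. The siR_Nostrill group received a pool of 3 siRNA duplexes against Nostrill and no IFN-γ, and the siR_Nostrill + IFN-γ group received that pool and IFN-γ. The study's methods give 1 ng/ml of IFN-γ for 4 h, while the labels give 24 h for every library. All libraries come from 1 cell line, and the level of the targeted RNA, which would show the depth of the knockdown, was not analysed here.

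Cells can die by several regulated routes. In pyroptosis, inflammasome sensors or cytosolic lipopolysaccharide activate inflammatory caspases, which cut gasdermin D so that it opens pores in the plasma membrane. In the extrinsic route, a ligand such as Fas ligand engages a death receptor and activates caspase-8, whereas with caspase-8 blocked the kinases Ripk1 and Ripk3 act on Mlkl, which breaks the membrane in necroptosis. In the gut epithelium these routes remove infected cells, and IFN-γ is known as an inducer of many of their genes.

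The libraries held from 17824306 to 19093204 reads on genes. The label names the cells intestinal epithelial, but their defining markers were near 0: of 10 epithelial markers 6 were listed, and their summed level was 1.23 to 3.05 FPKM (fragments per kilobase of transcript and per unit of mapped reads) over the 12 libraries, with Lgr5 and Cdx2 at a median of 0. Mesenchymal genes were abundant, with a median of 1679 FPKM for Vim and 216 FPKM for Col1a1. The summed level of the 6 mesenchymal markers was 2030 to 2266 FPKM in siR_Ctrl and 2426 to 2536 FPKM in siR_Ctrl + IFN-γ, which did not overlap. It was 1986 to 2186 FPKM in siR_Nostrill and 2137 to 2265 FPKM in siR_Nostrill + IFN-γ, which overlapped each other, and the latter lay below siR_Ctrl + IFN-γ without overlap. Leukocyte markers summed to 16.3 to 18.9 FPKM in siR_Ctrl and, without overlap, 19.2 to 21.8 FPKM in siR_Nostrill, and to 16.0 to 19.4 and 18.7 to 21.5 FPKM with IFN-γ, nearly all of it Cd14, and Ptprc, which marks all leukocytes, was at a median of 0. The part of these marker levels in the comparisons below was not tested. In RNA from whole cultures, fewer cells of a type and less RNA per cell cannot be told apart.

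The 3 inflammatory caspase genes lie side by side on chromosome 9 of GRCm38.p6, on the plus strand, within 74518 bases. Casp1 (gene ID 12362) spans chr9:5298517-5307281, Casp4 (12363) spans chr9:5308849-5336791 and Casp12 (12364) spans chr9:5345442-5373034. The gaps between them are 1567 and 8650 bases, with no other annotated gene in between. The other members are scattered: Casp8 (12370) is at chr1:58795233-58847503, plus strand, Gsdmd (69146) at chr15:75862144-75867408, plus strand, Mlkl (74568) at chr8:111311255-111338479, minus strand, and Fas (14102) at chr19:34290647-34327775, plus strand. Ripk1 (19766), at chr13:34002225-34035170 on the plus strand, overlaps Serpinb6a, and Ripk3 (56532), at chr14:55784995-55788857 on the minus strand, overlaps the noncoding gene Gm32092. Whether the counting used strand is not stated in the sources used here, so reads of such overlapping genes may not have been told apart.

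Promoter windows of RefSeq (GRCm38.p6, 250 bases before to 50 after a transcript start) were matched by gene ID for 8 of the 9 members. They numbered 10, with 2 each for Casp4 and Ripk1. Not every start of a gene need be covered: the only Casp8 window lies inside the gene, which begins at chr1:58795233. The windows are shown because letters bound by transcription factors of the interferon response can be searched for in them. The letters TTCNNNGAA, the gamma-activated site read the same way on both strands, were found in 3 of these 10 windows, 1 each of Casp12, Fas and Ripk1, against 8.3% of the 32851 windows of all genes. The letters GAAANNGAA, a core of the interferon-stimulated response element searched on both strands, were found in 2 of the 10, 1 each of Ripk1 and Ripk3, against 8.56% of all windows. In the windows below, capitals mark these matches. Casp12 is shown for its repeated match, and Fas, Ripk1 and Ripk3 for theirs. Casp4 and Casp8 are shown as a gene that rose with IFN-γ and one that did not pass the test. Neither holds a match in the windows searched, and the bases before the beginning of the Casp8 gene were not searched. In the Ripk1 window, the gamma-activated site nearer the start shares its last 3 bases with the response element.
Casp12 (chr9:5345226-5345525, plus strand): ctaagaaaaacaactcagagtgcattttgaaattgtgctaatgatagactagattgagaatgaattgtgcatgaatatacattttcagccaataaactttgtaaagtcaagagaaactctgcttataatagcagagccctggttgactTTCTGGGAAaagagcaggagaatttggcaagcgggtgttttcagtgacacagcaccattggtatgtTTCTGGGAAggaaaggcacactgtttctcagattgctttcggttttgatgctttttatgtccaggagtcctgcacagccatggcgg
Fas (chr19:34290409-34290708, plus strand): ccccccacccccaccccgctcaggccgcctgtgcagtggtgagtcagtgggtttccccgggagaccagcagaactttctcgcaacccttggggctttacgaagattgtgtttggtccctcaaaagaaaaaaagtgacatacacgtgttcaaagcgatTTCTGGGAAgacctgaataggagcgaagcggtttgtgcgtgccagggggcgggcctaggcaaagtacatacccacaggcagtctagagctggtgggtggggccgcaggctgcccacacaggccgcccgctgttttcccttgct
Ripk1 (chr13:34002624-34002923, plus strand): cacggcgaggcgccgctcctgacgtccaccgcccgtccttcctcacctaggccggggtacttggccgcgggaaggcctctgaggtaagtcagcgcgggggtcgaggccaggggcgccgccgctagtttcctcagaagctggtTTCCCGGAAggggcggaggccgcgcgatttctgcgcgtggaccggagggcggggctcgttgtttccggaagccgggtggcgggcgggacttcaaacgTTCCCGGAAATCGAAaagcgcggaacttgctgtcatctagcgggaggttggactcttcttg
Ripk3 (chr14:55788808-55789107, minus strand): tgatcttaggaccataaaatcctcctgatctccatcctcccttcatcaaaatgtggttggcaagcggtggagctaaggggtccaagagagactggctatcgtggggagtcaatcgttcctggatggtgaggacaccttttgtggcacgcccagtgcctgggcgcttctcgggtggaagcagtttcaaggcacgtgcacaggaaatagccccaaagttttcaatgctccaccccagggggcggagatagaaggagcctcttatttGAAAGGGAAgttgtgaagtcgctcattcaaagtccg
Casp4 (chr9:5308599-5308898, plus strand): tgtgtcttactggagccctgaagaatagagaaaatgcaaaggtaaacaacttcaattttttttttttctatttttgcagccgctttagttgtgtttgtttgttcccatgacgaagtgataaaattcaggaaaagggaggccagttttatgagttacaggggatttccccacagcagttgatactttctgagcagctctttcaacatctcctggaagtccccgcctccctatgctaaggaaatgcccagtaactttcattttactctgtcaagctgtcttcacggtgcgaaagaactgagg
Casp8 (chr1:58802252-58802551, plus strand): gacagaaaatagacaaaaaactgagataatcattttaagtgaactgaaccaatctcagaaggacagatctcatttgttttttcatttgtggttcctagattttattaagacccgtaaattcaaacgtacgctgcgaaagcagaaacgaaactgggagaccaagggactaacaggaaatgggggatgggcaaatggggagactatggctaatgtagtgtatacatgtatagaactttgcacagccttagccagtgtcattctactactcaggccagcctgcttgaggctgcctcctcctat
In Casp12, the letters TTCTGGGAA occur from 102 to 94 and again from 36 to 28 bases before the start. In Fas the same 9 letters occur from 93 to 85 bases before it. In Ripk1, the letters TTCCCGGAA occur from 108 to 100 and from 11 to 3 bases before the start, and GAAATCGAA begins 5 bases before it. In Ripk3, a gene with hardly any reads, GAAAGGGAA lies after the start. A match describes the sequence and is not a measured binding site.

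The levels of the members were spread widely. In resting siR_Ctrl cells Mlkl, the executioner of necroptosis, was the highest, at 40.2 ± 0.673 FPKM (SD, n = 3). It was followed by Casp8 at 20.8 ± 0.380, Ripk1 at 13.9 ± 1.68, Gsdmd at 9.51 ± 1.34, Casp12 at 9.33 ± 0.584, Casp4 at 6.80 ± 0.224 and Fas at 3.42 ± 0.0200 FPKM. Each of these levels was separated from the next by more than the range of the libraries, except Gsdmd and Casp12, whose ranges overlapped. Ripk3, the kinase that acts on Mlkl, and Casp1, the main inflammasome protease, were at the bottom with 0.0900 ± 0.0721 and 0.0700 ± 0.0265 FPKM, and their ranges overlapped as well. Averaged over the 12 libraries, the level of Mlkl was above that of 89.2% of the genes listed, and those of the next 6 were above 61.5% to 71.3%. The corresponding values were 21.6% for Casp1 and 15.1% for Ripk3. In resting siR_Nostrill cells the order was the same from Mlkl, at 40.2 FPKM, to Fas, at 4.36 FPKM. Casp1 and then Ripk3 followed, the reverse of their order in siR_Ctrl cells, and their ranges again overlapped.

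**Figure D1:**
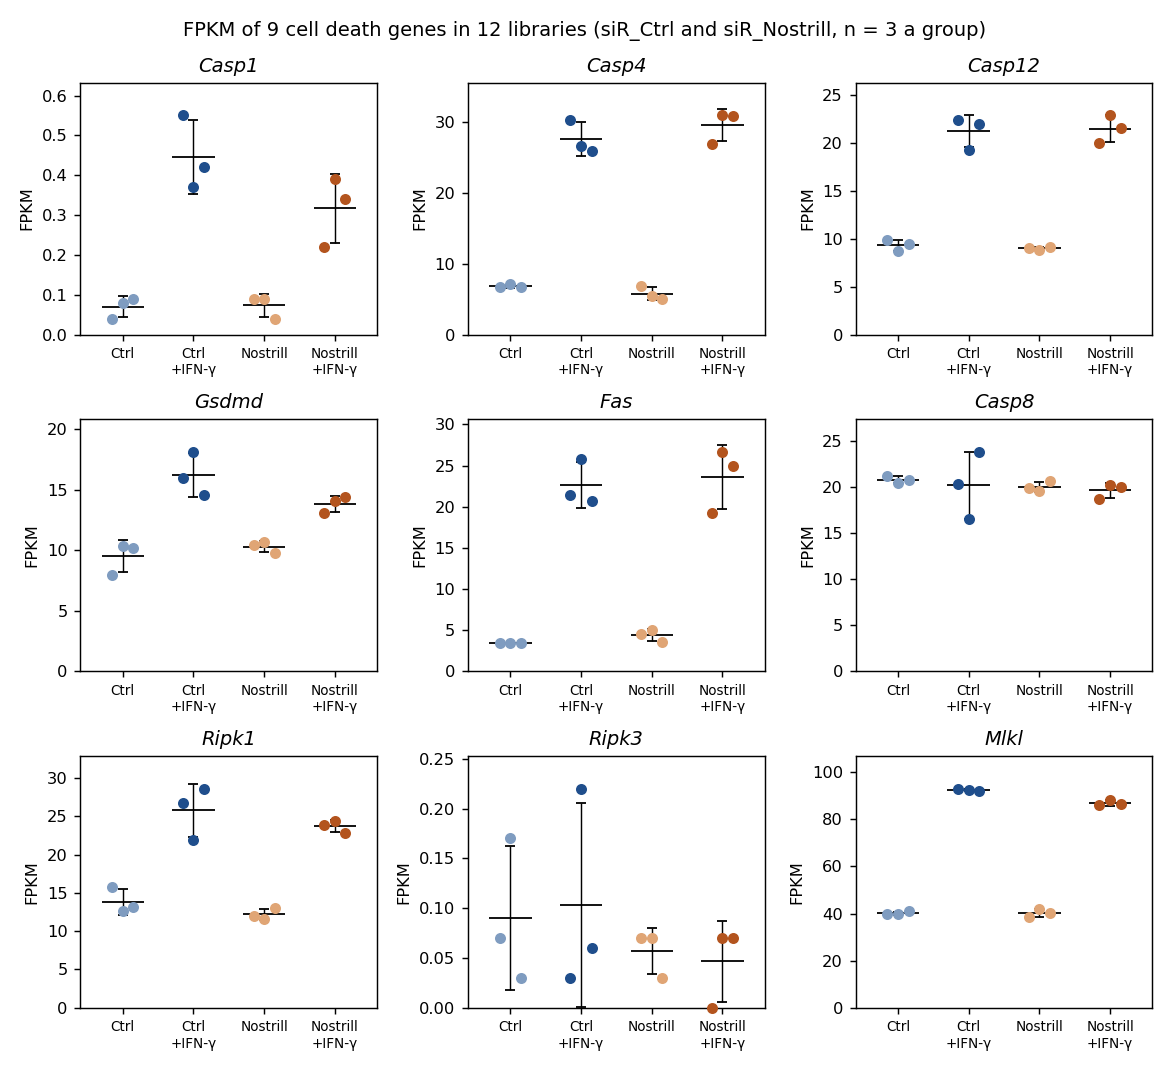
FPKM of each member in the 12 libraries, with 1 panel a gene, linear axes from 0, 1 point a library, a line at the mean and bars of ±1 SD (n = 3). The points with IFN-γ lie above those without it for Casp1, Casp4, Casp12, Gsdmd, Fas, Ripk1 and Mlkl with both siRNAs. They lie across them for Casp8 and Ripk3. Of all genes tested, 7.5% lay above without overlap in siR_Ctrl and 16.3% in siR_Nostrill cells. Casp1, which was not among the genes tested, had at most 13 reads in any library.

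Most of the members that could be tested rose with IFN-γ. Counts of 11900 genes that passed a filter on low counts, 7 members among them, were compared with edgeR (quasi-likelihood test, Benjamini-Hochberg adjustment over all 11900 genes, threshold 0.05). In siR_Ctrl cells 6 of the 7 rose (Fas, Casp4, Mlkl, Casp12, Ripk1 and Gsdmd), where 4.71% of all genes tested rose. In siR_Nostrill cells 5 of the 7 rose (Fas, Casp4, Casp12, Mlkl and Ripk1), where 5.24% of all genes did. None of the 7 fell with either siRNA, where 0.748% and 1.55% of all genes tested fell. The median log2 fold change of the 7 was 1.25 in siR_Ctrl and 1.11 in siR_Nostrill cells, beside -0.0085 and -0.00056 over all genes tested. Casp1 and Ripk3 did not pass the filter and are described by their reads. The 2 comparisons use separate libraries. In FPKM, all libraries with IFN-γ lay above all those without it for 7.5% of genes tested in siR_Ctrl cells. In siR_Nostrill cells this held for 16.3%, and the separations of single members given below are read beside these shares.

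Casp4, the mouse protease also called caspase-11, detects lipopolysaccharide in the cytosol and cuts gasdermin D. In siR_Ctrl cells it was at 6.70, 7.06 and 6.65 FPKM, and with IFN-γ at 30.3, 26.5 and 25.9 FPKM. In siR_Nostrill cells it was at 6.79, 5.47 and 5.05 FPKM, and with IFN-γ at 26.9, 30.9 and 30.9 FPKM. Every library with IFN-γ was above every library without it. The log2 fold change was 2.06 (SE 0.14, adjusted p = 1.25e-06) in siR_Ctrl cells, a 4.17-fold rise with a 95% interval of 3.37 to 5.15. It was 2.34 (SE 0.14, adjusted p = 4.91e-07) in siR_Nostrill cells, a 5.06-fold rise. These changes ranked 146 and 105 among the 11900 genes, counted from the largest rise.

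Casp12, the neighbour of Casp4, belongs to the inflammatory caspases by sequence and has been linked to stress of the endoplasmic reticulum. Its levels in siR_Ctrl cells were 9.83, 8.69 and 9.48 FPKM without and 22.4, 19.3 and 22.04 FPKM with IFN-γ. In siR_Nostrill cells they were 9.08, 8.86 and 9.10 FPKM without and 20.04, 22.9 and 21.6 FPKM with IFN-γ. Again no library with IFN-γ reached down to those without it. The rise was 2.39-fold in siR_Ctrl cells (log2 fold change 1.25, SE 0.075, adjusted p = 4.27e-07) and 2.41-fold in siR_Nostrill cells (1.27, SE 0.076, adjusted p = 4.33e-07). Casp4 was below Casp12 in resting cells and above it with IFN-γ: the ratio of their FPKM went from 0.732 ± 0.0705 to 1.30 ± 0.109 in siR_Ctrl and from 0.640 ± 0.0984 to 1.37 ± 0.0471 in siR_Nostrill cells (SD, n = 3), with no overlap.

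Casp1, the third gene of the cluster, cuts the precursors of interleukin-1β and interleukin-18 and also gasdermin D. It had 1, 2 and 2 reads in siR_Ctrl libraries and 13, 9 and 10 reads with IFN-γ. In siR_Nostrill it had 2, 2 and 1 reads, and 5, 9 and 8 reads with IFN-γ. The libraries with IFN-γ were all above those without it, at a level of at most 0.55 FPKM. The summed reads went from 5 to 32 in siR_Ctrl cells, a ratio of 6.15 after scaling to library totals (exact 95% interval 2.38 to 20.2), and from 5 to 22 in siR_Nostrill cells, a ratio of 4.42 (1.63 to 14.9). These intervals cover counting error only. An exact two-sided permutation test over libraries gave p = 0.1 in both, the smallest p that 3 against 3 libraries allow. With no filter on low counts, edgeR gave adjusted p = 0.00418 in siR_Ctrl and 0.0302 in siR_Nostrill cells, and DESeq2 gave 0.0147 and 0.0773. Per length, Casp4 was 110 ± 50.4 times the level of Casp1 in siR_Ctrl and 62.9 ± 8.35 times in siR_Ctrl + IFN-γ cells (SD, n = 3). In siR_Nostrill cells it was 87.5 ± 34.4 times without and 97.5 ± 22.3 times with IFN-γ. The ratios without IFN-γ rest on 1 or 2 reads of Casp1 a library.

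Gsdmd encodes the protein that these caspases cut to form pores. Its levels in siR_Ctrl cells were 7.96, 10.4 and 10.2 FPKM without and 16.0, 18.1 and 14.5 FPKM with IFN-γ. In siR_Nostrill cells they were 10.4, 10.7 and 9.78 FPKM without and 13.1, 14.1 and 14.4 FPKM with IFN-γ. The libraries did not overlap with either siRNA, as for 7.5% of genes tested (higher with IFN-γ) in siR_Ctrl and 16.3% in siR_Nostrill cells. In siR_Ctrl cells Gsdmd rose 1.83-fold (log2 fold change 0.87, SE 0.16, adjusted p = 0.00633). In siR_Nostrill cells the log2 fold change was 0.42 (SE 0.16, 95% interval 0.070 to 0.78, adjusted p = 0.157, unadjusted p = 0.0230 by edgeR), which missed the threshold. Both calls depended on the fit. With only the groups compared in the fit, adjusted p was 0.0915 in siR_Ctrl and 0.0254 in siR_Nostrill cells. In siR_Nostrill cells limma on log2(FPKM + 1) and log2(FPKM + 0.1) gave adjusted p = 0.0494 and 0.0487. Over 22 alternatives adjusted p ranged from 2.16e-05 to 0.0915 and from 0.00336 to 0.330. Relative to Casp4, the level of Gsdmd went from 1.40 ± 0.183 to 0.590 ± 0.0816 in siR_Ctrl and from 1.81 ± 0.238 to 0.469 ± 0.0159 in siR_Nostrill cells, with no overlap.

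Fas, the receptor for Fas ligand, showed the largest fold change of the 7. In siR_Ctrl cells it was at 3.40, 3.42 and 3.44 FPKM without and 21.5, 25.8 and 20.7 FPKM with IFN-γ. In siR_Nostrill cells it was at 4.47, 5.02 and 3.58 FPKM without and 19.3, 26.6 and 25.0 FPKM with IFN-γ. The groups were far apart with both siRNAs. The rise was 7.13-fold (95% interval 5.43 to 9.36) in siR_Ctrl cells, with a log2 fold change of 2.83 (SE 0.18, adjusted p = 6.47e-07) that ranked 97 among the 11900 genes. In siR_Nostrill cells it was 5.43-fold (4.17 to 7.07), with a log2 fold change of 2.44 (SE 0.17, adjusted p = 2.04e-06). From the lowest of the 7 tested members in resting cells, Fas came to lie among Ripk1, Casp12 and Casp8 with IFN-γ, whose ranges it overlapped in turn.

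Casp8, the protease that death receptors activate and that holds necroptosis in check, did not move with IFN-γ beyond the spread of the libraries. Its levels in siR_Ctrl cells were 21.2, 20.5 and 20.7 FPKM without and 20.3, 16.5 and 23.8 FPKM with IFN-γ. In siR_Nostrill cells they were 19.9, 19.6 and 20.7 FPKM without and 18.7, 20.2 and 19.98 FPKM with IFN-γ. The groups overlapped with both siRNAs. The log2 fold change was 0.018 (95% interval -0.18 to 0.22, adjusted p = 0.943) in siR_Ctrl and -0.062 (-0.27 to 0.14, adjusted p = 0.690) in siR_Nostrill cells. The intervals leave out a change of more than 1.17-fold upward in siR_Ctrl or 1.10-fold in siR_Nostrill cells.

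Ripk1, the kinase and scaffold that joins death receptors to survival signals or to Ripk3, rose with both siRNAs. It was at 15.8, 12.7 and 13.2 FPKM in siR_Ctrl and 26.7, 21.97 and 28.6 FPKM in siR_Ctrl + IFN-γ. It was at 12, 11.5 and 13.0 FPKM in siR_Nostrill and 23.9, 24.4 and 22.9 FPKM in siR_Nostrill + IFN-γ. No library with IFN-γ overlapped those without it. The rise was 1.94-fold in both comparisons, with log2 fold changes of 0.96 (SE 0.089, adjusted p = 2.41e-05) and 0.96 (SE 0.090, adjusted p = 2.71e-05). Per length, Ripk1 was below Casp8 in resting cells and above it with IFN-γ, with ratios of 0.666 ± 0.0684 and 1.28 ± 0.0707 in siR_Ctrl cells and of 0.608 ± 0.0213 and 1.21 ± 0.0684 in siR_Nostrill cells.

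Ripk3, the kinase that Ripk1 or Zbp1 recruits and that phosphorylates Mlkl, was barely detected. Its reads were 2, 5 and 1 in siR_Ctrl and 1, 7 and 2 in siR_Ctrl + IFN-γ. They were 2, 2 and 1 in siR_Nostrill and 0, 2 and 2 in siR_Nostrill + IFN-γ. All groups overlapped. The sums were 8, 10, 5 and 4 reads, and a group of 3 libraries with no read would allow up to 0.0531 to 0.0555 CPM (3 counts over the group). The ratio with IFN-γ was 1.20 (exact 95% interval 0.427 to 3.50) in siR_Ctrl and 0.803 (0.159 to 3.73) in siR_Nostrill cells, and the exact permutation test gave p = 0.9 and 0.7. These intervals cover counting error only, and a change within them was not detectable at this depth.

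Mlkl, the protein that breaks the membrane in necroptosis, was the highest member in every group. In siR_Ctrl cells it was at 39.7, 39.8 and 40.9 FPKM without and 93.0, 92.3 and 92.1 FPKM with IFN-γ. In siR_Nostrill cells it was at 38.3, 41.9 and 40.3 FPKM without and 86.3, 88.4 and 86.4 FPKM with IFN-γ. The replicates were close and the groups well apart. The rise was 2.44-fold (95% interval 2.16 to 2.76) in siR_Ctrl cells, with a log2 fold change of 1.29 (SE 0.080, adjusted p = 5.50e-07). In siR_Nostrill cells it was 2.16-fold (1.92 to 2.44), with a log2 fold change of 1.11 (SE 0.079, adjusted p = 2.07e-06). The level of Mlkl relative to Casp8 went from 1.93 ± 0.0518 to 4.69 ± 0.868 in siR_Ctrl and from 2.01 ± 0.113 to 4.44 ± 0.159 in siR_Nostrill cells.

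**Figure D2:**
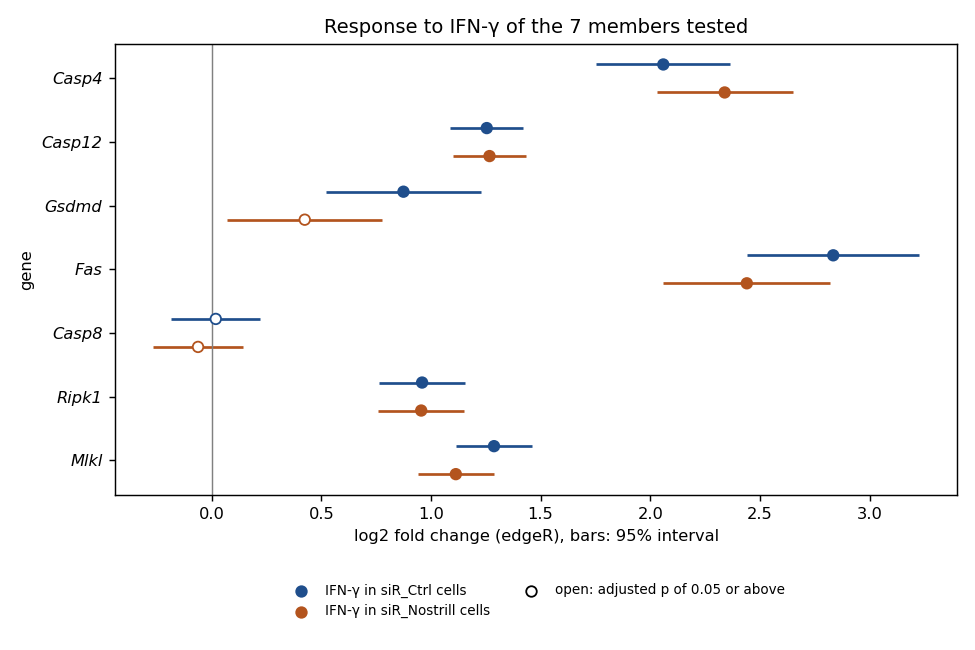
Log2 fold change with IFN-γ of the 7 members tested, in siR_Ctrl (blue) and siR_Nostrill (orange) cells, with 95% intervals from edgeR and open points where adjusted p was 0.05 or above. Fas and Casp4 lie farthest to the right, at 2.06 to 2.83, Casp8 lies at 0, and the Gsdmd point is open in siR_Nostrill cells.

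With IFN-γ the levels per length drew together below Mlkl. In siR_Ctrl + IFN-γ cells the order was Mlkl at 92.5, Casp4 at 27.6, Ripk1 at 25.8, Fas at 22.7, Casp12 at 21.3, Casp8 at 20.2 and Gsdmd at 16.2 FPKM. From Casp4 to Gsdmd, each of these overlapped the next in range. In siR_Nostrill + IFN-γ cells the order of these 7 was the same, from 87.0 FPKM for Mlkl and 29.6 for Casp4 to 13.8 for Gsdmd, and only Ripk1, Fas, Casp12 and Casp8 overlapped their neighbours.

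**Figure D3:**
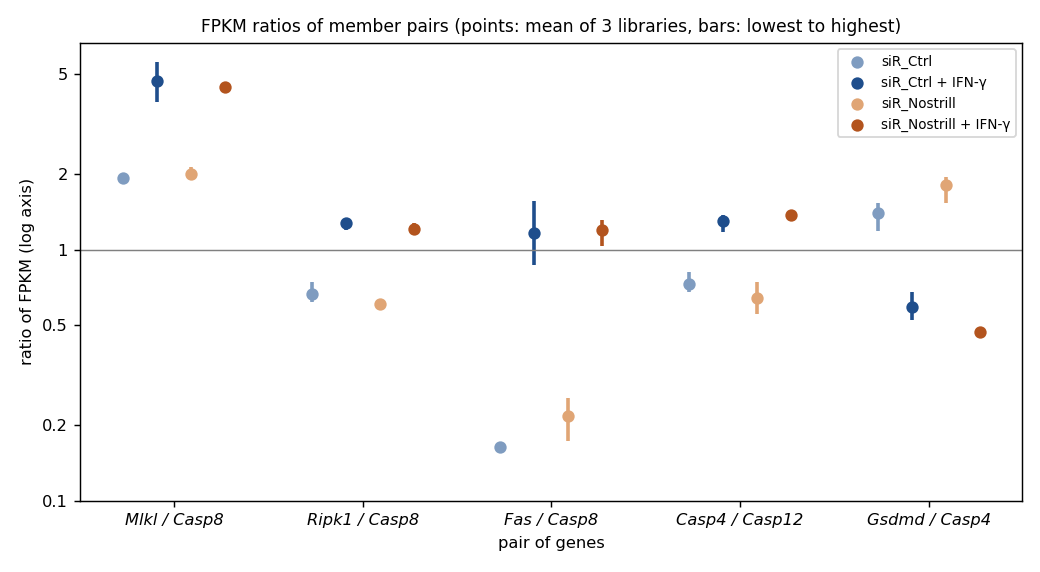
Ratios of FPKM between pairs of members on a log axis, with points at the mean of 3 libraries and bars from the lowest to the highest library. Mlkl, Ripk1 and Fas relative to Casp8 and Casp4 relative to Casp12 are higher with IFN-γ, and Gsdmd relative to Casp4 is lower.

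The next comparison asks whether siR_Nostrill itself changed the members. None of the 7 tested passed the threshold without IFN-γ (edgeR, 0 also at an unadjusted p under 0.05), where 0.218% of all genes tested passed the adjusted threshold and 13.8% the unadjusted one. None passed it with IFN-γ either (0 also unadjusted), against 0.429% and 14.5% of all genes. DESeq2 called 0 members in both. These comparisons share their control libraries with those above. The median log2 fold change of the 7 was -0.018 without and -0.099 with IFN-γ, beside 0.0051 and -0.0026 over all genes tested.

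Without IFN-γ the 3 siR_Nostrill libraries were above the 3 siR_Ctrl libraries for Fas, at 3.58 to 5.02 against 3.40 to 3.44 FPKM, as for 10.2% of genes tested. Its log2 fold change was 0.41 (95% interval -0.0036 to 0.81, adjusted p = 0.359). The other 6 overlapped. Their log2 fold changes were -0.22 (-0.54 to 0.098) for Casp4, -0.18 (-0.38 to 0.014) for Ripk1, 0.16 (-0.20 to 0.52) for Gsdmd, 0.038 (-0.13 to 0.21) for Mlkl, -0.037 (-0.20 to 0.13) for Casp12 and -0.018 (-0.22 to 0.19) for Casp8.

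With IFN-γ the siR_Nostrill libraries were below the siR_Ctrl libraries for Gsdmd and Mlkl, as for 8.29% of genes tested. Gsdmd was at 13.1 to 14.4 against 14.5 to 18.1 FPKM, with a log2 fold change of -0.29 (95% interval -0.64 to 0.061, adjusted p = 0.440). Mlkl was at 86.3 to 88.4 against 92.1 to 93.0 FPKM, with a log2 fold change of -0.14 (-0.31 to 0.036, adjusted p = 0.460). The other 5 overlapped, and this held for Fas, at 0.011 (-0.33 to 0.36), which had not overlapped without IFN-γ. Casp4 was at 0.060 (-0.22 to 0.34), Casp12 at -0.024 (-0.19 to 0.14), Casp8 at -0.099 (-0.30 to 0.10) and Ripk1 at -0.19 (-0.38 to 0.0076) on the log2 scale.

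The interaction tests whether the response to IFN-γ differed between the siRNAs. No member passed (0 also at an unadjusted p under 0.05), and over all genes edgeR called 0.0%, with 1277 genes, 10.7% of all, at an unadjusted p under 0.05 and 0 called by DESeq2. The value of Gsdmd was -0.45 (95% interval -0.95 to 0.050, adjusted p = 0.430), so the rise in siR_Ctrl cells and the missed threshold in siR_Nostrill cells are not shown to differ. The other values were -0.39 (-0.93 to 0.14) for Fas, 0.28 (-0.15 to 0.71) for Casp4, -0.17 (-0.42 to 0.070) for Mlkl, -0.081 (-0.37 to 0.21) for Casp8, 0.013 (-0.22 to 0.24) for Casp12 and -0.0041 (-0.28 to 0.27) for Ripk1. The interval was narrowest for Casp12 and widest for Fas.

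**Figure D4:**
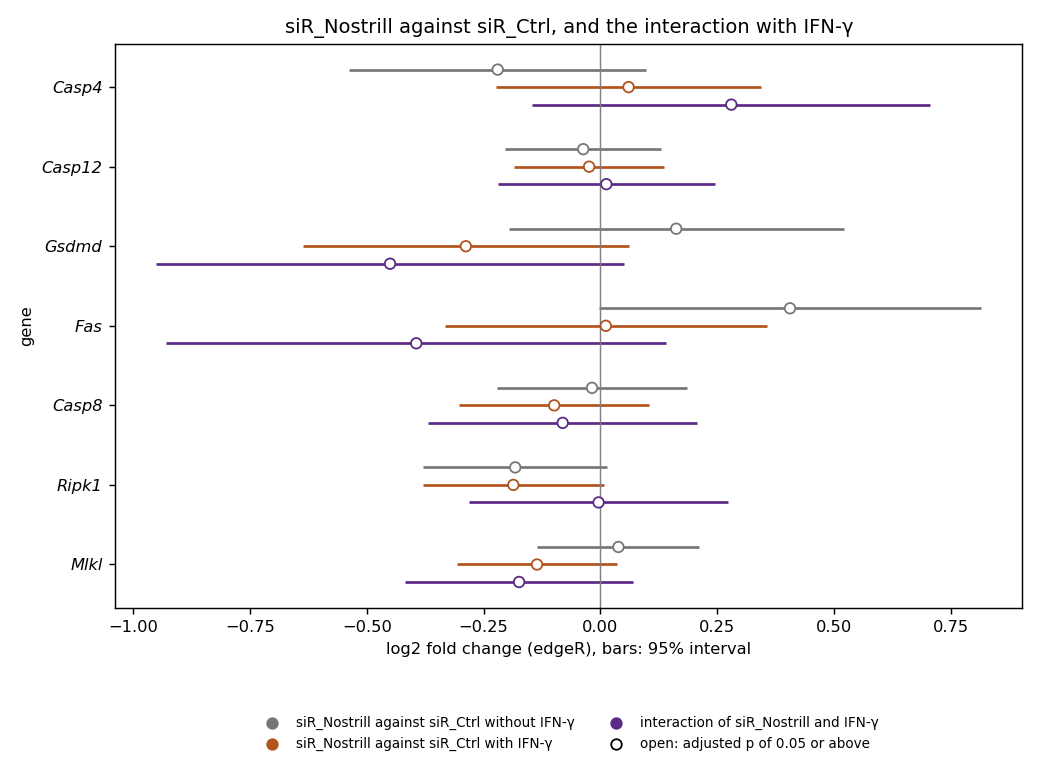
Log2 fold change of siR_Nostrill against siR_Ctrl without IFN-γ (grey) and with it (orange), and the interaction (purple), for the 7 members tested, with 95% intervals from edgeR. Every point is open (adjusted p of 0.05 or above) and every interval includes 0.

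Fold changes moved with gene length across all genes in these libraries. Spearman's rho between effective length and log2 fold change, a description across genes of shared libraries, was -0.42 for IFN-γ in siR_Ctrl, 0.48 for IFN-γ in siR_Nostrill, -0.65 for siR_Nostrill without IFN-γ, 0.26 with IFN-γ and 0.65 for the interaction. The members range from 1149 bases (Casp4) to 4483 bases (Ripk1). With the length trend of each library removed, 6 of the 7 rose with each siRNA, where 9.45% of all genes tested rose in siR_Ctrl and 9.72% in siR_Nostrill cells: Gsdmd in siR_Nostrill cells came to 0.53 (adjusted p = 0.00336), and the values of Fas were 2.80 and 2.59, those of Casp4 2.02 and 2.51, those of Casp12 1.32 and 1.29, those of Mlkl 1.31 and 1.18 and those of Ripk1 1.12 and 0.80. In that fit Ripk1 fell by 0.31 on the log2 scale in siR_Nostrill + IFN-γ against siR_Ctrl + IFN-γ cells (adjusted p = 0.0396), a call that no other fit made. That fit called 9.85% of all genes tested in this comparison, 7.12% of all as lower, so 1 of 7 members is near the share over all genes. The range of adjusted p for Ripk1 over 22 alternatives was 0.0396 to 0.735. Without IFN-γ Ripk1 came to 0.011 in that fit.

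The genes whose levels over the 12 libraries were most like those of a member were sought among 10514 genes by Pearson's r of log2(FPKM + 1), as a description. For Mlkl it was Irf1, a transcription factor of the interferon response (r = 0.998). For Casp12 it was the GTPase gene Gbp9 (0.997), for Fas Plekhf1 (0.996), for Casp4 the GTPase gene Ifi47 (0.993), for Gsdmd Ogfr (0.992) and for Ripk1 Plekhm1 (0.991). For Casp8, which did not follow IFN-γ, the best likeness was lower, 0.877 with Snx9. The 12 points share their libraries and fall into groups with and without IFN-γ.

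Other genes of the same routes were taken from 8 lists with 95 names, of which 76 were in the table and 62 passed the filter. With IFN-γ 9 of the 62 rose and 0 fell in siR_Ctrl cells (20 at an unadjusted p under 0.05, as for 14.6% of all genes tested), and 10 rose and 2 fell in siR_Nostrill cells (25 unadjusted, as for 21.9% of all genes tested), read against the 5.45% and 6.78% of all genes called in either direction. The median log2 fold change of the 62 was 0.12 and 0.054. Most of the listed genes passed in neither comparison.

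Of 8 other necroptosis genes, Zbp1 and Tlr3 rose with both siRNAs and the other 6 did not pass in either. Zbp1, a sensor of Z-form nucleic acid that recruits Ripk3, went from 1.19 ± 0.276 to 36.3 ± 5.78 FPKM in siR_Ctrl and from 1.64 ± 0.438 to 41.2 ± 4.49 FPKM in siR_Nostrill cells (SD, n = 3). Its log2 fold changes were 5.22 (SE 0.21, adjusted p = 1.30e-08) and 4.59 (SE 0.20, adjusted p = 2.56e-08). Tlr3, an endosomal receptor for double-stranded RNA, went from 0.617 to 3.16 and from 0.757 to 4.75 FPKM, with log2 fold changes of 2.45 and 2.63. Stub1, a ubiquitin ligase and the most abundant of the list, was at 0.15 and -0.36 and did not pass.

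Of 3 death receptor genes tested among 8 names for ligands and other receptors, 1 rose with both siRNAs. This was Tnfrsf1a, the main receptor for tumour necrosis factor, which went from 45.5 ± 1.54 to 96.9 ± 2.51 FPKM in siR_Ctrl and from 51.6 to 103 FPKM in siR_Nostrill cells (log2 fold changes 1.16 and 0.98). Fasl, the ligand of Fas, did not pass the filter and was at most 0.06 FPKM in any library, and Tnf was at most 0.39 FPKM. Of 20 genes of the receptor complex and its brakes, 2 rose in siR_Ctrl and 1 in siR_Nostrill cells. Rnf31, the catalytic subunit of the linear ubiquitin ligase that modifies Ripk1 complexes, rose from 6.11 to 18.5 and from 6.77 to 18.6 FPKM (log2 fold changes 1.67 and 1.43). Rbck1, another subunit of that ligase, rose in siR_Ctrl cells (0.58, adjusted p = 0.0116) and was at 0.29 (adjusted p = 0.174) in siR_Nostrill cells. Mapkapk2, a kinase that acts on Ripk1, was at 0.041 and 0.044 and did not pass.

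Among the other caspase genes, Casp2, a caspase of stress responses, passed in siR_Nostrill cells (0.49, adjusted p = 0.0445) and was at 0.051 in siR_Ctrl cells. Among genes of gasdermins and membrane rupture 2 were tested. Ninj1, whose protein tears the membrane after pores have formed, rose in siR_Ctrl cells (0.82, adjusted p = 0.0106) and was at 0.37 (adjusted p = 0.214) in siR_Nostrill cells. Gsdme, another gasdermin gene, fell in siR_Nostrill cells (-0.44, adjusted p = 0.00913) and was at -0.30 (adjusted p = 0.0796) in siR_Ctrl cells. None of these differences between the siRNAs passed the interaction test.

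Of 14 names of inflammasome sensors and adaptors 9 were listed and 3 passed the filter, none of which was called. The sensor genes Nlrp3 and Aim2, which did not pass it, were at most 0.12 and 0.21 FPKM in any library. Card19, which encodes a small protein with a caspase recruitment domain, was abundant, with group means of 116 to 134 FPKM, and its fold changes with IFN-γ were 0.27 and 0.0017 on the log2 scale. Nek7, a kinase that binds Nlrp3, had group means of 21.3 to 27.6 FPKM. Of the cytokines that these caspases or others process, the alarmin Il33 rose in siR_Nostrill cells (0.71, adjusted p = 0.0249) and was at 0.46 (adjusted p = 0.192) in siR_Ctrl cells. Of 18 genes of mitochondrial apoptosis tested, 2 rose in siR_Ctrl and 3 rose and 1 fell in siR_Nostrill cells. Bak1, which opens the outer mitochondrial membrane, rose by 0.76 and 0.71, and Bid, which caspase-8 cuts to engage that step, rose by 0.59 and 0.69. Bcl2l11, an activator of this route, passed in siR_Nostrill cells (0.73, adjusted p = 0.0278; 0.39 in siR_Ctrl). Bmf, of the same family, fell in siR_Nostrill cells (-0.63, adjusted p = 0.0329), while Bax was at 0.19 and -0.41 and did not pass.

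**Figure D5:**
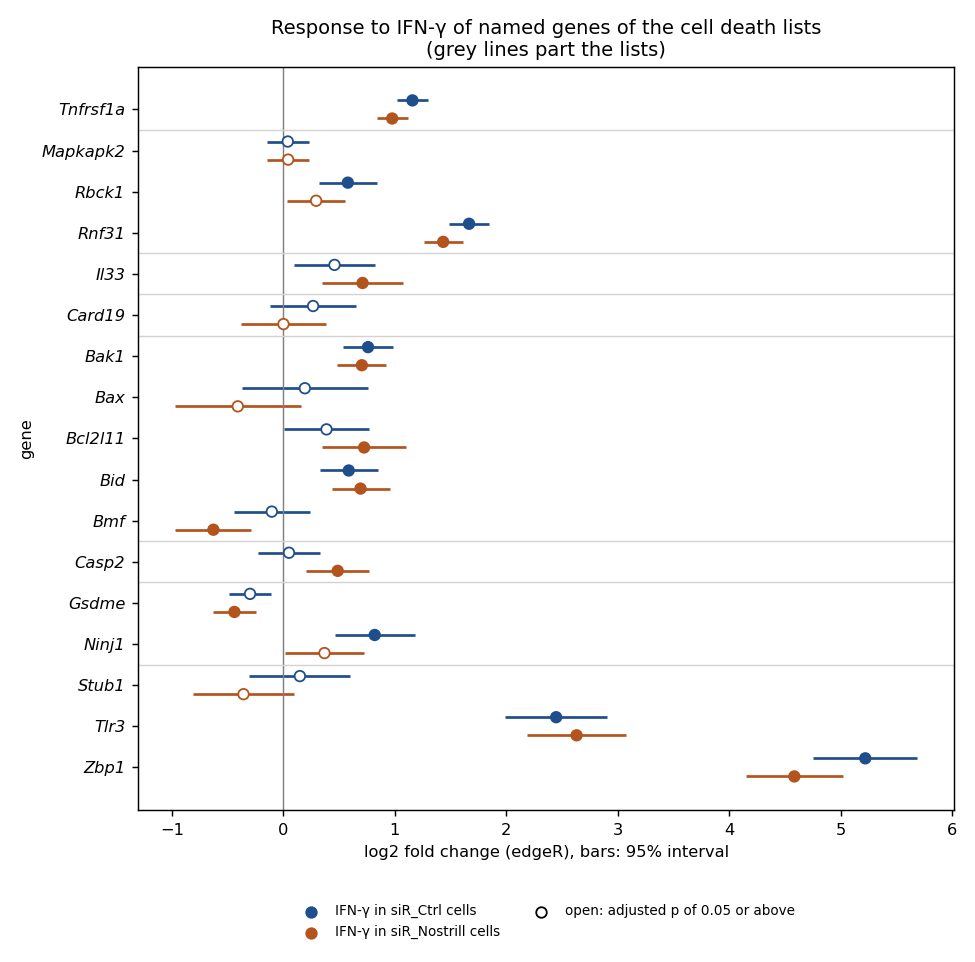
Log2 fold change with IFN-γ of named genes of the 8 lists, parted by grey lines, in siR_Ctrl (blue) and siR_Nostrill (orange) cells. Bars are 95% intervals from edgeR, and points are open where adjusted p was 0.05 or above. Of the other caspase genes only Casp2 is drawn, and Nek7 is left out. Zbp1 lies farthest to the right at 5.22 and 4.59, and Mapkapk2, Card19, Bax and Stub1 have open points with both siRNAs.

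Between siR_Nostrill and siR_Ctrl cells 0 of the 62 listed genes passed without IFN-γ (edgeR, 11 at an unadjusted p under 0.05, as for 13.8% of all genes tested) and 0 with it (13 unadjusted, as for 14.5%). DESeq2 called 2 and 6 of them, and 265 and 596 of all genes. The interaction called 0 of them (4 unadjusted, as for 10.7% of all genes, and 0 by DESeq2). Bak1 was at 82.4 ± 0.789 against 62.3 ± 5.01 FPKM without and 137 ± 9.86 against 101 ± 2.39 FPKM with IFN-γ, with log2 fold changes of 0.43 (adjusted p = 0.150) and 0.38 (adjusted p = 0.110). Gsdme was at -0.21 and -0.35 (adjusted p = 0.329 and 0.0942).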

How the data were processed

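RNA of IEC4.1 cells had been sequenced on a DNBSEQ platform in 12 libraries. The study describes biological triplicates, and p-values measure the spread between them. The authors deposited for each gene and library an estimated count of reads, not normalized, and an FPKM and a TPM value. The submitters' processing notes name HISAT2 and GRCm38.p6, and the tool for counting was not given in the sources used here. FPKM totals differed between libraries, from 570935 to 794809, so levels carry the authors' scaling. The deposited TPM values were not used.

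The estimated counts were made whole by rounding. The main test was the quasi-likelihood test of edgeR (version 4.0.16, R 4.3.3) with TMM factors and the default low-count filter. One model held the 12 libraries, and p-values were adjusted by Benjamini-Hochberg over the 11900 genes that passed. The procedure was first tested on simulated counts. They held no length trend, so that test cannot show how the procedure behaves with the length trends given above. Further fits used DESeq2 (1.42.0) or its size factors, no filter, a filter at 5 CPM, fewer groups, a replicate block, limma (3.58.1) on FPKM with 1 or 0.1 added before log2 (mean FPKM minimum 0.5, or none), offsets that took away each library's length trend (lowess, span 0.3), and each library left out.

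The members and the gene lists were chosen with earlier results of these data known. Every member was named, with, of each list, up to 4 genes that passed in any comparison (by highest mean FPKM) and the most abundant gene, some of which are not reported here. Fasl, Tnf, Nlrp3, Aim2 and Nek7 fall outside that rule and were chosen after their values were seen. Intervals are 95%.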

Additional observations from a re-analysis of the deposited data

How the results depend on the processing

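Counts of members called in the 5 comparisons were the same under 10 alternatives (9 for the interaction, which compares all 4 groups) apart from those named here, the calls of Gsdmd given above (with only the groups compared, 2 limma fits and the length trend removed), and Casp1, which was called with IFN-γ where low counts were kept (edgeR with no filter and limma on all genes for both siRNAs, DESeq2 in siR_Ctrl cells), and under each of 12 libraries left out (6, 5, 0, 0 and 0 called). With the length trend removed, 1 of 7 members (Ripk1) was called in siR_Nostrill against siR_Ctrl with IFN-γ, where 9.85% of all genes tested were. Of 35 member fold changes 10 changed sign in some alternative, and 0 of these was called. With limma the reversed values were, for log2(FPKM + 1) and log2(FPKM + 0.1), -0.0552 and -0.0583 for Casp8 with IFN-γ in siR_Ctrl cells, 0.0261 and 0.0278 for its interaction, 0.0179 and 0.0187 for Casp12 in siR_Nostrill + IFN-γ cells, 0.0616 and 0.0693 for the Ripk1 interaction, and -0.0004 for Mlkl in siR_Nostrill cells without IFN-γ. With the length trend removed they were -0.0284 for the Casp12 interaction, -0.0368 for Mlkl and 0.0108 for Ripk1, both without IFN-γ. The cause was not tested.

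Leaving out libraries, the ranges that crossed 0 were -0.0106 to 0.134 (Casp4), -0.186 to 0.0033 (Casp8), -0.0525 to 0.0226 (Casp12) and -0.0744 to 0.152 (Fas) for siR_Nostrill with IFN-γ, -0.0049 to 0.0748 (Mlkl) without it, -0.0838 to 0.110 for Casp8 with IFN-γ in siR_Ctrl, and -0.174 to 0.0218 (Casp8), -0.0199 to 0.0596 (Casp12) and -0.0842 to 0.0487 (Ripk1) for the interaction.

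Listed pathway genes called numbered 17 (IFN-γ in siR_Ctrl), 21 (IFN-γ in siR_Nostrill), 2 (siR_Nostrill without IFN-γ) and 11 (with IFN-γ) with the length trend removed, 20 for IFN-γ in siR_Nostrill with only the groups compared, 2 and 6 for siR_Nostrill without and with IFN-γ by DESeq2, and 1 with IFN-γ in each limma fit. Over libraries left out they ranged from 8 to 11 and from 8 to 15 for IFN-γ in siR_Ctrl and siR_Nostrill.

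Over all genes, IFN-γ in siR_Ctrl called 649 genes (341 with only the groups compared, 1281 with the length trend removed). IFN-γ in siR_Nostrill called 807 (1330 by DESeq2, 1997 with only the groups, 1743 without the trend), of which 77.2% were higher against 63.2%, 58.3% and 66.4%. It called 491 without siR_Nostrill replicate 2 and 500 without siR_Nostrill + IFN-γ replicate 2, in a range of 491 to 1138. siR_Nostrill without IFN-γ called 26 (265 by DESeq2, 0 with only the groups, 17 with limma on all genes, 314 without the trend, and 0 to 37 with a library left out). With IFN-γ it called 51 (596 by DESeq2, 30 with no filter, 105 at 5 CPM, 0 with only the groups, 135, 114 and 118 with limma, 1172 without the trend, and 0 to 72 with a library left out). Of these calls 34.6% and 43.1% were higher, against 55.0% and 68.1% with limma on log2(FPKM + 1), and for the latter comparison 27.7% without the trend.

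The replicate numbers did not pair the libraries (correlation of deviations -0.667 to 0.862 over 18 same-numbered pairs). With the replicate block 6, 5, 0, 0 and 0 members were called, and for siR_Nostrill with IFN-γ 32 of all genes. Depth limited Casp1 and Ripk3 (at most 13 and 7 reads a library), and the length trends of the libraries limit small fold changes.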
